A study of Homo sapiens with 36 samples.

Results

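Wnt feedback and target genes were described as 10 named genes: RNF43, ZNRF3, NOTUM, AXIN2, NKD1, LGR5, ASCL2, SP5, TCF7 and LEF1, of 62757 genes in the count tables. The rule is the gene name alone, although the list was drawn up with earlier results of these data known. Of the 10 members, 7 passed the filter on low counts, a mean of at least 64 counts in at least 1 group, and were tested among 12356 genes, while LGR5, ASCL2 and LEF1 did not pass. RNA-seq of polyA mRNA was performed in HCT-116 cells, a colorectal cancer line with an activating mutation of β-catenin, either WT or FBXW7-/- (KO). FBXW7 is the substrate receptor of a ubiquitin ligase, HDAC4 is a class IIa histone deacetylase that acts as a scaffold for repressor complexes, and oxaliplatin (OXPT) is a platinum drug that damages DNA. The study asked how FBXW7 loss and the removal of HDAC4 alter the response to OXPT.

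The labels place 24 libraries in 8 groups of 3. KO cells were given a control esiRNA (esiCT), an esiRNA pool that silences HDAC4 (esiHDAC4), or esiCT with #11, a PROTAC that degrades class IIa HDACs, for 48 h, each without OXPT (UNT) or with OXPT at 50 µM for the last 24 h. Untreated cells received the solvents. The label entries give #11 as 1 µM or as 10 µM. For the 6 WT libraries, UNT and OXPT, the titles name a control and the treatment entries name esiHDAC4, so that the labels do not settle the esiRNA of WT and every comparison with WT carries this limit. The KO line came from a supplier and whether it is a single clone is not stated, and a further 12 WT libraries with conflicting OXPT labels entered no comparison. Nothing in the labels says that replicates were separate cultures, so p-values measure the spread between these libraries, which may be technical.

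In the canonical Wnt pathway, ligand binding to Frizzled and LRP5/6 receptors protects β-catenin from a destruction complex built on AXIN, and β-catenin then enters the nucleus and activates genes with TCF/LEF proteins. Many of the activated genes feed back on the pathway: RNF43 and ZNRF3 are membrane ubiquitin ligases that remove Frizzled, NOTUM is a secreted enzyme that strips the lipid from Wnt ligands, AXIN2 rebuilds the destruction complex and NKD1 binds Dishevelled. LGR5 is the R-spondin receptor of intestinal stem cells, ASCL2 and SP5 are transcription factors under Wnt control, and TCF7 and LEF1 are themselves TCF/LEF factors. In the intestine these genes mark the crypt base, and β-catenin mutation acts below the receptors. HCT-116 cells are described as carrying loss-of-function mutations in both RNF43 alleles, so RNF43 RNA is not a measure of active protein there.

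Promoter sequences are shown for the members on which the results turn and for which RefSeq sequences (GRCh38.p14) were at hand with no annotated exon in the printed bases. RefSeq promoter entries matched 4 of the 10 members, SP5, LEF1, TCF7 and RNF43. Each run holds the 250 bases before a start site, 5′ to 3′ on the strand of the gene. Capitals mark the TCF/LEF letters CTTTGAT or CTTTGAA, on either strand, and the AP-1 letters TGANTCA.
SP5, chr2:170715087-170715336, plus strand: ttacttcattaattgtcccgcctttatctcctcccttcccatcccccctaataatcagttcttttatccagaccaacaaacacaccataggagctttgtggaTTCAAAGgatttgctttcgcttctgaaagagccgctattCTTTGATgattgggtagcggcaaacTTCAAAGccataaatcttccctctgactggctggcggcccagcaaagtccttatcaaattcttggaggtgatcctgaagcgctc
TCF7, second start site, chr5:134123368-134123617, plus strand: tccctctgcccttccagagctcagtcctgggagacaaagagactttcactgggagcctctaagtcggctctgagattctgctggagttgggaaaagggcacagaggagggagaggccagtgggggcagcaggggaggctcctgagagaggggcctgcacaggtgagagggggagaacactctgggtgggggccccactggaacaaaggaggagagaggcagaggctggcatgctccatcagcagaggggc
RNF43, downstream start site, chr17:58402722-58402971, minus strand: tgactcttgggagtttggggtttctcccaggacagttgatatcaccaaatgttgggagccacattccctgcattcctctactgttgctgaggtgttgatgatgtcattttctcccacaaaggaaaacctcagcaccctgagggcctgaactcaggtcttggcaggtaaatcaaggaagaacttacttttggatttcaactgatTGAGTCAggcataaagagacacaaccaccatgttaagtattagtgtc
SP5 held 3 TCF/LEF matches within these 250 bases, ending 141, 102 and 77 bases before the start site. Of 35116 RefSeq promoter windows of 250 bases before and 50 after a start site, 6.86% held at least 1 such match. The windows of TCF7, RNF43 and LEF1 held 0 TCF/LEF matches. The downstream RNF43 start site lies inside the gene, and the last 47 bases before it belong to the regulatory element of chr17:58402341-58402768 that the study placed in a reporter, found here by matching its primers to GRCh38. The window held 1 AP-1 match, 40 bases before the start site, inside that element, and 7.71% of all windows held an AP-1 match. A match is a description of letters and no evidence of binding.

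The libraries held 10725966 to 20527222 unstranded counts, and the reads carried no strand information, since counts on either strand were nearly equal in every library. Between 7.74% and 22.3% of reads were unmapped, with the highest share in KO esiCT OXPT replicate 3. Epithelial markers EPCAM, KRT8, KRT18, KRT19 and CDH1 were present in all libraries, whereas VIL1 and CDX1, markers of mature intestinal cells, had medians of 0.0771 and 0 CPM, where CPM is counts per 1000000 library counts after TMM scaling. The 5 leukocyte and the 3 endothelial markers summed to at most 1.14 and 2.37 CPM, and of the 5 fibroblast markers 4 had a median under 1 CPM, with COL1A1 as the exception at 25.1 to 77.6 CPM. CDKN1A, the p53 target that encodes p21, was higher with OXPT in all 4 settings, by 2.55 to 3.18 on the log2 scale, and by 3.47 in WT without WT UNT replicate 3. HDAC4 RNA was 10.9 ± 3.48 CPM with esiHDAC4 against 19.1 ± 5.46 CPM with esiCT in untreated KO cells (SD, n = 3), a log2 difference of -0.82 with 1 overlapping library that did not pass the test (edgeR adjusted p = 0.561), and -0.74 under OXPT (adjusted p = 1). In WT UNT it was 18.8, 25.6 and 21.6 CPM, above all 3 KO esiHDAC4 UNT libraries, and KO esiHDAC4 against WT under OXPT gave a called log2 difference of -1.21 (edgeR adjusted p = 0.0434). With OXPT, HDAC4 RNA was called lower in KO esiCT (log2 difference -1.56), WT (-1.29) and KO esiHDAC4 (-1.48). In KO #11 its difference with OXPT was -0.497, without a call (edgeR adjusted p = 0.214). With #11 against esiCT it was called higher under OXPT (1.36, edgeR adjusted p = 0.0383) and not called in untreated cells (0.297). HDAC4 RNA thus did not follow the esiRNA alone. FBXW7 RNA was 16.9 ± 1.34 CPM in KO esiCT and 21.1 ± 3.60 CPM in WT, without OXPT (log2 difference -0.32, edgeR adjusted p = 1), so that the gene count did not check the KO label. WT UNT replicate 3 stood apart from the other untreated libraries, with 1221 CPM of CDKN1A against 381 and 288 CPM in WT UNT replicates 1 and 2. Values without it are given beside results for RNF43, AXIN2, NKD1, SP5, NOTUM and ZNRF3.

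The 7 members past the filter differed widely in level. Per kilobase of exon that no other gene shares, the median over the 24 libraries was 36.3 CPM for RNF43, 6.56 for AXIN2, 6.08 for NOTUM, 4.94 for TCF7, 3.35 for ZNRF3, 2.73 for SP5 and 1.17 for NKD1. This length joins the exons of all annotated isoforms, so the order depends on the annotation, with 17.3 kb for NKD1. Before division by length the median was 20.3 CPM for NKD1, 23.4 for ZNRF3 and 5.66 for SP5. Reads in exons shared with another gene are not assigned to either in the deposited counts. For RNF43 this left 31.0% of its exon bases, because a same-strand gene model, ENSG00000285897, covers 68.4% of them. For AXIN2 74.7% remained, and for the other members at least 94.8%. RNF43 levels thus come from the minor part of the gene, of which 17.4% is coding sequence, and changes in the remainder were not measured.

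LGR5, ASCL2 and LEF1 were at or near 0. LGR5 had 0 to 2 counts per library and 12 over all 24 libraries, ASCL2 had 0 to 2 and 9 in all, and LEF1 had 0 to 4 and 14 in all. LGR5 and LEF1 were at 0 in 15 libraries each and ASCL2 in 17. A count of 0 allows up to 3 counts, or 0.21 CPM in a library of median size, which covers counting error only. The 2 values above this level belonged to LEF1, 0.293 CPM in WT OXPT replicate 3 and 0.238 CPM in KO esiCT OXPT replicate 3. LEF1 had 13 of its counts in the 12 OXPT libraries and 1 in the 12 untreated libraries, ASCL2 had 8 and 1, and LGR5 had 3 and 9. With no count filter these members were tested too, and edgeR called none of the 3 in any of the 15 comparisons (lowest edgeR adjusted p = 0.419), with 1 of 45 values at an unadjusted p under 0.05. The stem cell markers LGR5 and ASCL2 stayed at 2 counts or fewer in every library.

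**Figure D1:**
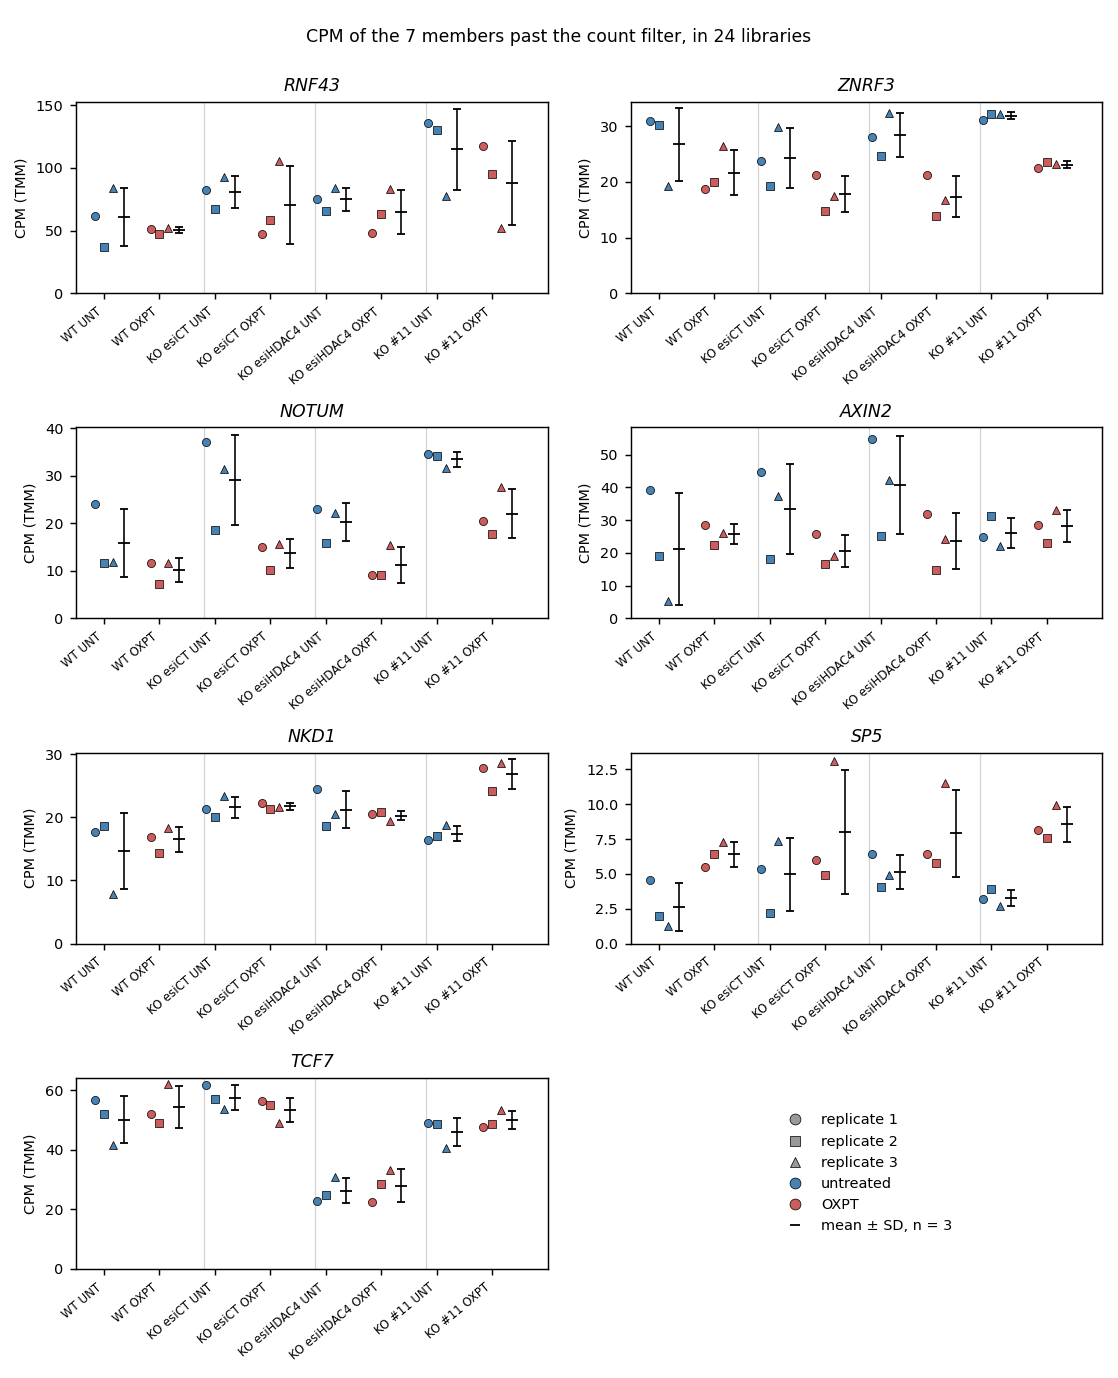
Level (TMM-scaled CPM, vertical axes from 0) of the 7 members past the count filter in the 8 groups, with each library as a point (shape for replicate number, colour for treatment) and the mean ± SD of 3 libraries as a bar. TCF7 lies between 22.4 and 33.2 CPM in the 6 KO esiHDAC4 libraries and above 40 CPM in the other libraries, among them the 6 WT libraries of unsettled esiRNA. RNF43 in the #11 groups is split by replicate number.

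TCF7 was the member that differed most clearly between groups, and it did so with esiHDAC4. TCF7 is a TCF/LEF factor whose gene has a second promoter that gives isoforms without the β-catenin-binding domain, and the gene counts join all isoforms. In untreated KO cells TCF7 was 61.9, 56.95 and 53.8 CPM with esiCT and 22.8, 25.0 and 30.9 CPM with esiHDAC4. The groups did not overlap, and the highest esiHDAC4 library was well below the lowest esiCT library. TCF7 fell by 1.13 on the log2 scale (SE 0.18, 95% interval -1.51 to -0.76, edgeR adjusted p = 0.0398), to 0.455 times the level with esiCT. It was the 1 gene called of 12356 tested in this comparison (0.00809%), where a call is an adjusted p under 0.05 with a change above 1.5-fold. The other 6 tested members were not called, with log2 differences between -0.52 for NOTUM and 0.29 for AXIN2.

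The TCF7 call was sensitive to which libraries shared the fit, although its size was not. Leaving out 1 of the 24 libraries at a time gave log2 differences between -1.29 and -1.05 and kept the call in 7 fits. It was lost in 17 fits, with values of -1.18 to -1.05 and adjusted p of 0.0508 to 0.832, those without any 1 of KO esiCT OXPT replicates 1 to 3, KO esiCT UNT replicates 1 to 3, KO esiHDAC4 OXPT replicate 2, KO esiHDAC4 UNT replicates 1 and 2, KO #11 UNT replicates 1 and 2, KO #11 OXPT replicates 1 to 3, WT OXPT replicate 2 and WT UNT replicates 1 and 2. The adjusted p over the other alternatives ranged from 6.9e-08, with DESeq2, to 0.222.

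Under OXPT the difference had the same sign and a similar size. TCF7 was 56.3, 55.2 and 48.9 CPM in KO esiCT OXPT and 22.4, 28.4 and 33.2 CPM in KO esiHDAC4 OXPT. These groups did not overlap either, and the log2 difference was -0.94 (SE 0.18, 95% interval -1.31 to -0.56). TCF7 had the lowest p of the 12356 genes, but with the adjustment it was not called (edgeR adjusted p = 0.466), and edgeR called 0 of 12356 genes (0%), with 380 genes at an unadjusted p under 0.05. DESeq2 called 13 genes (0.105%), TCF7 among them (log2 difference -0.95, DESeq2 adjusted p = 8.41e-05). With replicate 3 of every group left out TCF7 was called by edgeR (-1.14, adjusted p = 0.0375), as 1 of 12356 genes. The other 6 members had log2 differences from -0.29 to 0.20, with NOTUM lowest and AXIN2 highest. The change of the esiHDAC4 difference with OXPT was 0.20 for TCF7 (95% interval -0.32 to 0.72, edgeR adjusted p = 1).

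With the degrader #11 TCF7 was not called. It was 48.9, 48.7 and 40.5 CPM in KO #11 UNT, below the esiCT libraries without overlap, with a log2 difference of -0.32 (SE 0.18, 95% interval -0.69 to 0.05, edgeR adjusted p = 0.442). Under OXPT it was 47.6, 48.8 and 53.3 CPM, and the groups overlapped (log2 difference -0.10, 95% interval -0.47 to 0.27, edgeR adjusted p = 0.878). The intervals with #11 and with esiHDAC4 under OXPT did not overlap, but the difference between the agents was not tested. Against WT OXPT, at 52.1, 48.8 and 62.2 CPM, TCF7 fell in KO esiHDAC4 OXPT by 0.96 on the log2 scale (SE 0.18, 95% interval -1.33 to -0.59, edgeR adjusted p = 0.0191). This was 1 of 29 genes called (0.235%). The call was lost without KO esiHDAC4 OXPT replicate 1 or 2 or WT OXPT replicate 3, at -0.98 to -0.82 with adjusted p of 0.131 to 0.225. In the order of group means the KO esiHDAC4 groups came last, separated from the other 6 groups, whose neighbours in the order overlapped. The labels do not settle the esiRNA of the WT groups among these.

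**Figure D2:**
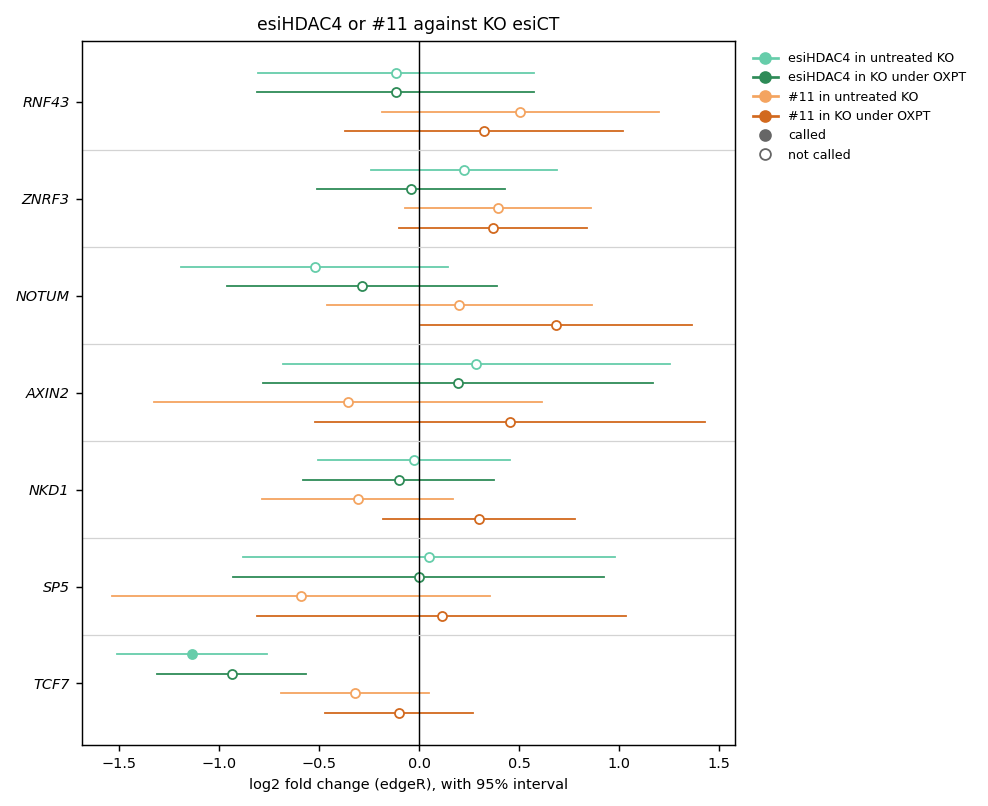
Log2 fold changes (horizontal axis) of the 7 tested members with esiHDAC4 or #11 against esiCT in KO cells, with 95% intervals from edgeR and filled points for called values. The TCF7 intervals with esiHDAC4 lie wholly below 0, at -1.51 to -0.76 and -1.31 to -0.56, and that of the untreated cells is the called one.

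Of the members that act at the surface or are secreted, NOTUM fell with OXPT in KO esiCT and ZNRF3 in KO esiHDAC4, while RNF43 did not pass the test in any setting. NOTUM, which inactivates Wnt ligands outside the cell, was 37.2, 18.6 and 31.5 CPM in KO esiCT UNT and 15.0, 10.3 and 15.7 CPM in KO esiCT OXPT. All 3 OXPT libraries lay below the untreated libraries. NOTUM fell by 1.09 on the log2 scale (SE 0.33, 95% interval -1.77 to -0.41, edgeR adjusted p = 0.0334), to 0.470 times the untreated level. It was the 1 member of 7 called in this comparison, where 11.3% of all tested genes were called, so that the share of members was near the background. The call was lost without KO esiCT OXPT replicate 1, 2 or 3 or KO esiCT UNT replicate 1 or 3, at -1.20 to -0.89 with adjusted p of 0.0502 to 0.159.

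In the other settings NOTUM also lay lower with OXPT without passing the main test. In KO esiHDAC4 it was 22.9, 15.8 and 22.1 CPM untreated and 9.12, 9.02 and 15.5 CPM with OXPT, a log2 difference of -0.86 (95% interval -1.53 to -0.18, edgeR adjusted p = 0.0925). With the replicate number as a block it was called (-0.85, edgeR adjusted p = 0.0251), in a fit that called 16.7% of genes. In KO #11 it was 34.6, 34.1 and 31.6 CPM against 20.4, 17.8 and 27.7 CPM, with no overlap and a difference of -0.61 (edgeR adjusted p = 0.267). In WT it was 24.1, 11.6 and 11.9 CPM against 11.6, 7.17 and 11.6 CPM, with overlap and a difference of -0.64 (edgeR adjusted p = 0.229). Without WT UNT replicate 3 this difference was -0.80 (95% interval -1.53 to -0.08) and was not called (edgeR adjusted p = 0.115). The NOTUM response to OXPT did not differ detectably between KO esiCT and WT, with a change of -0.45 (95% interval -1.40 to 0.51, edgeR adjusted p = 1).

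ZNRF3, the paralogue of RNF43 that clears Frizzled from the membrane, was 28.2, 24.6 and 32.5 CPM in KO esiHDAC4 UNT and 21.3, 13.9 and 16.8 CPM in KO esiHDAC4 OXPT. The groups did not overlap, and ZNRF3 fell by 0.71 on the log2 scale (SE 0.23, 95% interval -1.18 to -0.24, edgeR adjusted p = 0.0442). It was 1 of 7 members called, against 12% of all genes. The call was near the threshold, and it was lost in 13 of the 24 fits that left out 1 library, at -0.81 to -0.59 with adjusted p of 0.0504 to 0.188. These were the fits without KO esiCT UNT replicate 1, KO esiHDAC4 OXPT replicate 2 or 3, KO esiHDAC4 UNT replicate 1, 2 or 3, KO #11 UNT replicate 1, 2 or 3, KO #11 OXPT replicate 1, 2 or 3, or WT OXPT replicate 2. In KO #11 ZNRF3 was 31.2, 32.3 and 32.3 CPM untreated and 22.4, 23.6 and 23.3 CPM with OXPT, without overlap, and the difference of -0.47, which is under 1.5-fold, was not called (edgeR adjusted p = 0.214). The differences were -0.44 in KO esiCT and -0.31 in WT, with overlapping libraries and 95% intervals that included 0. Without WT UNT replicate 3 the difference in WT was -0.49 (95% interval -0.96 to -0.02) and was not called (edgeR adjusted p = 0.138). In WT, ZNRF3 was 31.0, 30.2 and 19.3 CPM untreated and 18.8, 19.97 and 26.4 CPM with OXPT, so that the sign was opposite in the libraries numbered 3. With replicate 3 left out of every group it was called there (-0.64, edgeR adjusted p = 0.0466), in a fit that called 20.9% of genes.

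RNF43 did not pass the test in any of the 15 comparisons. With OXPT its log2 differences were -0.20 in KO esiCT, -0.27 in WT, -0.21 in KO esiHDAC4 and -0.38 in KO #11, each with a 95% interval that included 0. Without WT UNT replicate 3 the value in WT was 0.04. The mean was 115 ± 32.2 CPM in KO #11 UNT and 88.1 ± 33.3 CPM in KO #11 OXPT, the highest of the 8 groups, and 50.5 ± 2.57 CPM in WT OXPT, the lowest (SD, n = 3). No neighbours in this order were separated.

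The spread of RNF43 with #11 followed the replicate number. In KO #11 UNT it was 136, 131 and 77.8 CPM, and in KO #11 OXPT 118, 94.8 and 51.9 CPM, with replicate 3 lowest in both. In the other 6 groups replicate 3 was the highest, for example 47.1, 58.5 and 106 CPM in KO esiCT OXPT and 82.6, 67.4 and 93.1 CPM in KO esiCT UNT. Over all libraries #11 against esiCT gave 0.50 untreated (95% interval -0.19 to 1.20, edgeR adjusted p = 0.547) and 0.32 under OXPT (-0.37 to 1.02, adjusted p = 0.775). The background was 0.51% and 0.121% of genes called. With replicate 3 left out of every group the differences were 0.84 (edgeR adjusted p = 0.0264) and 0.97 (adjusted p = 0.019), and RNF43 was called in both, in fits that called 14.6% and 11.5% of genes. Replicate 3 was the lowest library with #11 and the highest with esiCT, so leaving it out raised both differences by construction. These calls are therefore no support for a change of RNF43 with #11. The part of replicate 3 in these results was not tested further.

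Of the cytoplasmic inhibitors, AXIN2 varied more between libraries than NKD1. AXIN2, a scaffold of the destruction complex and a standard readout of β-catenin activity, ranged from 5.23 CPM in WT UNT replicate 3 to 54.8 CPM in KO esiHDAC4 UNT replicate 1. The next lowest value was 14.8 CPM, in KO esiHDAC4 OXPT replicate 2. In WT UNT it was 39.1, 19.1 and 5.23 CPM, and in WT OXPT 28.7, 22.4 and 26.1 CPM, a log2 difference of 0.28 with OXPT (SE 0.47, edgeR adjusted p = 0.762). The sign turned without WT UNT replicate 3 (-0.16, edgeR adjusted p = 0.787) and with replicate 3 left out of every group (-0.17, adjusted p = 0.824). In KO esiCT AXIN2 was 44.7, 18.2 and 37.4 CPM untreated and 25.9, 16.7 and 19.2 CPM with OXPT (log2 difference -0.70, 95% interval -1.68 to 0.28, edgeR adjusted p = 0.369). In KO esiHDAC4 it was 54.8, 25.0 and 42.4 CPM against 31.8, 14.8 and 24.2 CPM (log2 difference -0.79, edgeR adjusted p = 0.308). In both settings replicate 2 was the lowest untreated library and again the lowest OXPT library, and within each replicate number AXIN2 was lower with OXPT. With the replicate number as a block the esiHDAC4 setting fitted alone called AXIN2, which no other alternative did. That fit called 2338 of 12356 genes, the most of any setting for this comparison. AXIN2 in KO #11 was 24.8, 31.2 and 22.2 CPM untreated and 28.6, 23.0 and 33.0 CPM with OXPT, a difference of 0.11 with overlap. None of the order of the AXIN2 means separated neighbouring groups.

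NKD1, which dampens signalling at Dishevelled, was called in none of the comparisons by edgeR with all 24 libraries. With esiCT it was 21.3, 20.1 and 23.3 CPM untreated and 22.3, 21.3 and 21.7 CPM with OXPT, a log2 difference of 0.01 (95% interval -0.47 to 0.49). In KO #11 it was 16.4, 17.03 and 18.8 CPM untreated and 27.8, 24.1 and 28.5 CPM with OXPT, without overlap. The log2 difference there was 0.62 (SE 0.23, 95% interval 0.14 to 1.10), which missed the adjusted threshold in the main test (edgeR adjusted p = 0.098) and passed it with DESeq2 (0.61, adjusted p = 0.0381), which called 12.6% of genes. Without WT UNT replicate 3, a library of neither group, edgeR called it too (0.59, adjusted p = 0.0169). The other 23 fits with 1 library left out did not call it (edgeR adjusted p up to 0.269). The response to OXPT with #11 minus that with esiCT was 0.61 (95% interval -0.07 to 1.29, edgeR adjusted p = 0.776), so a difference between them was not detectable. KO #11 OXPT had the highest NKD1 mean and was separated from the next group. Against WT OXPT, at 16.8, 14.3 and 18.4 CPM, NKD1 in KO #11 OXPT was 0.70 higher on the log2 scale without overlap (95% interval 0.22 to 1.18, edgeR adjusted p = 0.158). Without WT UNT replicate 3 the value was 0.67 and was called (edgeR adjusted p = 0.0261), whereas the other 23 such fits did not call it (adjusted p up to 0.474).

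Among the target transcription factors, SP5 was the one member with positive log2 differences in all 4 OXPT settings. SP5, a zinc-finger repressor of the Sp family whose promoter is printed above, was low, at 13 to 140 counts per library, and passed the filter only through its higher groups. In WT it was 4.57, 2.01 and 1.28 CPM untreated and 5.51, 6.43 and 7.31 CPM with OXPT, without overlap. The log2 difference was 1.29 (SE 0.46, 95% interval 0.32 to 2.25, edgeR adjusted p = 0.0795). With the replicate number as a block SP5 was called (1.28, edgeR adjusted p = 0.0477), and so it was without KO esiCT OXPT replicate 3 or WT UNT replicate 1 (1.30 to 1.93, adjusted p of 0.0215 to 0.0463). It was not called in the other 22 fits with 1 library left out, among them that without WT UNT replicate 3, its lowest library (0.99, edgeR adjusted p = 0.16), nor with replicate 3 left out of every group (0.91, adjusted p = 0.13) or in the 2 groups fitted alone with the block (1.37, adjusted p = 0.12). In KO #11 SP5 was 3.18, 3.92 and 2.73 CPM untreated and 8.16, 7.55 and 9.93 CPM with OXPT. Each OXPT library was above each untreated library, and the difference was 1.38 (SE 0.45, 95% interval 0.43 to 2.32, edgeR adjusted p = 0.061). With the block it was called (1.32, edgeR adjusted p = 0.0393), and without KO esiCT OXPT replicate 3, KO esiCT UNT replicate 2, WT UNT replicate 1 or WT UNT replicate 3 as well (1.35 to 1.38, adjusted p of 0.0386 to 0.0473). The blocked fits called 15.3% of genes in WT and 13.9% in KO #11. In the KO cells with esiCT or esiHDAC4 the libraries overlapped, with differences of 0.67 and 0.62 and 95% intervals that included 0. The response did not differ detectably between genotypes (-0.61, 95% interval -1.94 to 0.72).

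TCF7 was not called with OXPT in any of the 4 settings, with log2 differences from -0.11 in KO esiCT to 0.12 in WT and 95% intervals that stayed within -0.47 and 0.49. OXPT thus called 1 of 7 members in KO esiCT (NOTUM), 0 in WT, 1 in KO esiHDAC4 (ZNRF3) and 0 in KO #11. The background was 11.3%, 10.7%, 12% and 9.51% of all tested genes, and at an unadjusted p under 0.05 the members numbered 1, 1, 2 and 2, beside 26.1%, 24.7%, 25.4% and 23.5% of genes. DESeq2 called 1, 1, 2 and 2 members, beside 15%, 13.9%, 15.2% and 12.6% of genes. The medians of the log2 differences over the 7 members were -0.20, 0.12, -0.21 and 0.11, beside 0.01, -0.06, 0.02 and 0.00 over all genes.

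**Figure D3:**
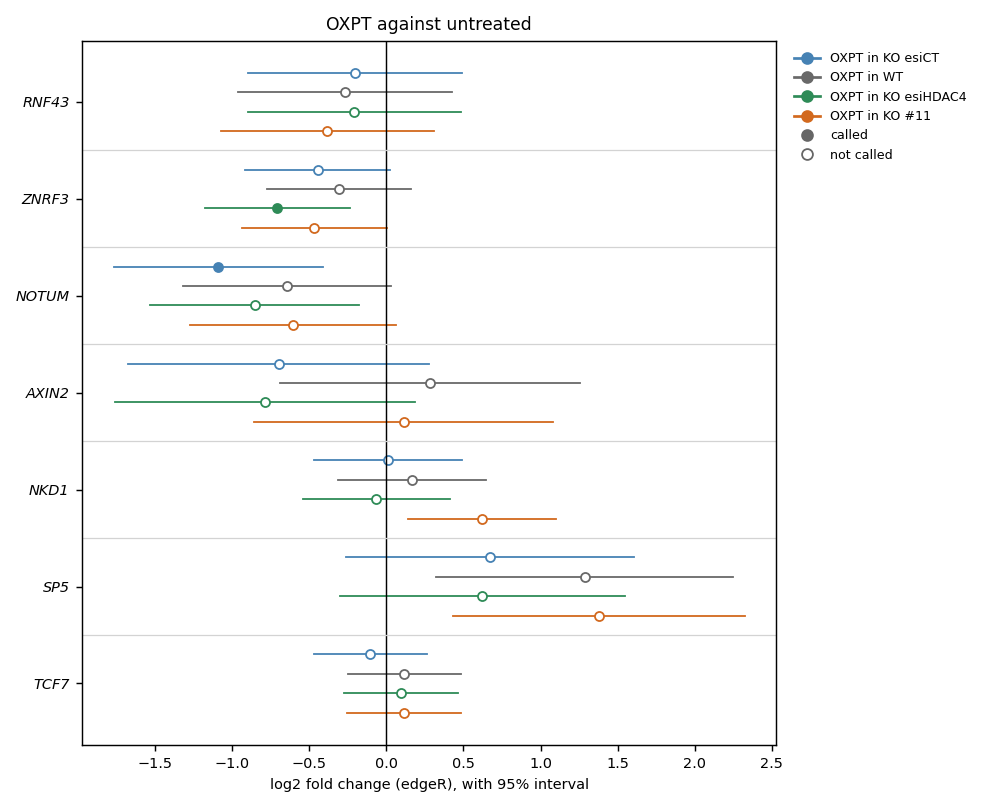
Log2 fold changes (horizontal axis) of the 7 tested members with OXPT against the untreated cells in 4 settings, with 95% intervals from edgeR and filled points for called values. NOTUM and ZNRF3 lie below 0 and SP5 above 0 in all 4 settings, with NOTUM called in KO esiCT (-1.09) and ZNRF3 in KO esiHDAC4 (-0.71).

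The comparisons of KO esiCT with WT called no member. They set the KO line against WT libraries of unsettled esiRNA, so they do not isolate FBXW7 loss. In untreated cells, where 0.291% of genes were called, the differences of KO esiCT from WT ranged from -0.15 for ZNRF3 to 0.91 for SP5, and 2 members had an unadjusted p under 0.05. These were NOTUM (0.88, edgeR adjusted p = 0.555) and NKD1 (0.55, adjusted p = 0.713), and DESeq2 called 0 members. WT UNT replicate 3 was the lowest of the 24 libraries for AXIN2, NKD1 and SP5. Without it the differences were 0.21 for AXIN2, 0.25 for NKD1, 0.61 for SP5 and 0.71 for NOTUM, and with replicate 3 left out of every group they were 0.12 for AXIN2, 0.20 for NKD1 and 0.22 for SP5. Other members moved away from 0. RNF43 went from 0.41 to 0.72 without it (95% interval -0.03 to 1.46) and to 0.60 with replicate 3 left out of every group. ZNRF3 went from -0.15 to -0.33 and to -0.50, and neither was called. Under OXPT, where 0.138% of genes were called, the 7 differences of KO esiCT from WT lay between -0.32 for AXIN2 and 0.48 for RNF43, and 0 members passed by either tool or had an unadjusted p under 0.05. With #11, KO against WT under OXPT (1.15% of genes called) gave 1.11 for NOTUM (95% interval 0.44 to 1.79, edgeR adjusted p = 0.101) and 0.80 for RNF43 (0.11 to 1.499, adjusted p = 0.297), neither called. NOTUM was 20.4, 17.8 and 27.7 CPM in KO #11 OXPT and at most 11.6 CPM in WT OXPT, and it was called by DESeq2, which called 3.56% of genes there. The tests of genotype by OXPT, esiHDAC4 by OXPT and #11 by OXPT called 0 members and 0 genes with edgeR, with 201, 19 and 863 genes at an unadjusted p under 0.05 and 0, 0 and 30 genes called by DESeq2.

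Members did not follow 1 common pattern across the 8 groups. The highest Pearson correlation of mean log2 CPM between members was that of RNF43 with NOTUM, 0.91 over 8 group means, and the lowest was that of SP5 with ZNRF3, -0.70. These are descriptions only, picked as the extremes of all pairs of members, and the groups share replicate numbers but no libraries. Of the 12355 other tested genes, the patterns most like that of RNF43 were those of SPPL2A, an intramembrane protease (r = 0.992), ACP6, a lysophosphatidic acid phosphatase (0.979), and the lncRNA ENSG00000258634 (0.971). The most alike to AXIN2 were FZD1, a Frizzled receptor (r = 0.963), PSMC6, a proteasome subunit (0.928), and TFB1M, a mitochondrial rRNA methyltransferase (0.921). These too are descriptions only, picked as the highest of 12355 values over 8 group means, where a high r can come from the picking alone.

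Other genes of the pathway were called with OXPT too. Of 114 further Wnt genes listed by role, 74 were tested, and with OXPT 9 were called in KO esiCT (4 higher, 5 lower), 7 in WT (5 higher, 2 lower), 10 in KO esiHDAC4 (5 higher, 5 lower) and 9 in KO #11 (7 higher, 2 lower). These shares, 12.2%, 9.46%, 13.5% and 12.2%, were near the background of all genes. DKK1, the secreted antagonist of LRP5/6 and a known target of both Wnt and p53, rose in all 4 settings. It went from 111 ± 39.8 to 549 ± 85.0 CPM in KO esiCT (SD, n = 3), a log2 change of 2.30 (SE 0.29, edgeR adjusted p = 2.23e-05), and rose by 2.07 in WT, 1.74 in KO esiHDAC4 and 2.04 in KO #11. PORCN, the acyltransferase that lipidates Wnt ligands for secretion, rose by 1.35, 1.75, 1.79 and 1.51 in the same order.

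Of 10 tested ligand genes, 1 was called in KO esiCT, 1 in WT, 2 in KO esiHDAC4 and 2 in KO #11, all higher with OXPT. These shares were 10%, 10%, 20% and 20%, beside 11.3%, 10.7%, 12% and 9.51% of all tested genes. WNT16, another of the 10, had log2 differences of -1.26, -0.83, -1.09 and -0.59 in the same order, without a call. WNT3 rose by 1.02 in KO esiCT, 1.23 in WT and 1.13 in KO esiHDAC4, and was not called in KO #11 (0.30). WNT9A was called in KO esiHDAC4 (1.66), and WNT4 (2.29, from 1.97 to 9.63 CPM) and WNT7B (1.69, from 9.22 to 29.8 CPM) in KO #11. In the other settings their log2 differences had the same sign without a call. These were 0.81 to 1.09 for WNT9A, 0.70 to 1.02 for WNT4 and 0.64 to 1.09 for WNT7B. WNT4 was low, at 1.97 to 2.83 CPM in the untreated groups, and passed the count filter only through groups with OXPT. WLS, the carrier of Wnt ligands to the cell surface, fell by 0.86 with OXPT in KO #11 and rose by 1.14 with #11 in untreated KO cells (edgeR adjusted p = 0.039), the 1 gene of the list called there. Its uncalled differences with OXPT were -0.61 in KO esiCT, -0.48 in WT and -0.71 in KO esiHDAC4. Of the receptors, LRP5 fell in KO esiCT (-0.81), WT (-0.60) and KO esiHDAC4 (-0.79), was 0.16 in KO #11 without a call, and was called higher in KO #11 than in WT under OXPT (0.86, edgeR adjusted p = 0.0304). ROR2, a receptor of non-canonical Wnt ligands, was called lower in KO esiCT (-0.82). Its uncalled values were -0.565 in WT, -0.61 in KO esiHDAC4 and -0.16 in KO #11. KREMEN1, a co-receptor of DKK1, was called lower in KO esiCT (-1.28) and KO esiHDAC4 (-1.27), and was -0.93 in WT and -0.33 in KO #11 without a call. Its paralogue KREMEN2 was called higher in WT (1.20), KO esiHDAC4 (1.14) and KO #11 (1.48), and was 0.80 in KO esiCT without a call. EPHB2, an ephrin receptor that positions crypt cells under Wnt control, fell in KO esiCT (-1.71), WT (-1.56) and KO esiHDAC4 (-1.41). It was not called in KO #11, with a log2 difference of -0.36, and whether #11 altered its response was tested only through the #11 by OXPT comparison, which called no gene. CEMIP, a hyaluronan-binding protein induced by Wnt in colon tumours, was called lower in KO esiCT (-2.78), KO esiHDAC4 (-2.24) and KO #11 (-1.75). In WT it was -1.48 without a call. All of these calls held with the replicate block.

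**Figure D4:**
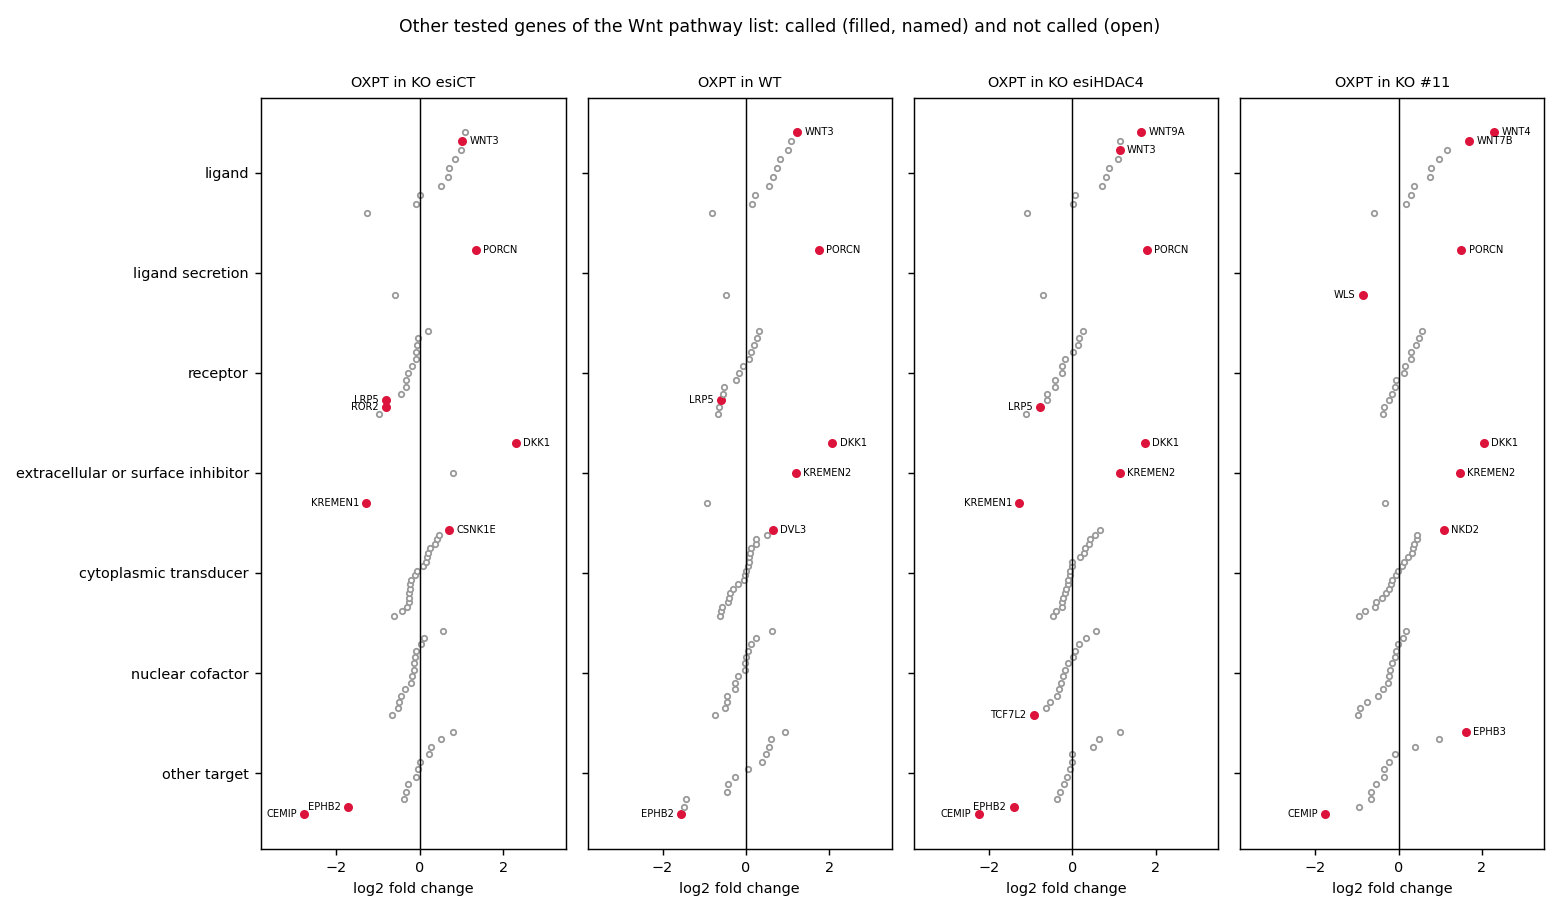
Log2 fold changes (horizontal axes) with OXPT of the 74 tested genes of the Wnt pathway list, by role (rows), in 4 settings (panels), with called genes filled and named and other genes open. DKK1 and PORCN lie to the right in all 4 panels, and of the 20 cytoplasmic transducers at most 1 is called in each panel.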

How the data were processed

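Expression was measured by polyA RNA-seq in HCT-116 cells. The deposited files hold raw counts per gene, made by the authors and not normalized, for 36 libraries and 62757 Ensembl identifiers, in unstranded, forward and reverse columns with the layout of STAR gene counts. The submitters' processing notes name STAR 2.7.11a, Trimmomatic 0.39 and hg38, without an annotation. The study's methods test salmon estimates, so these are not the values tested there. The unstranded column was used, because both strands held nearly equal counts (reverse over forward 1.004 to 1.016), although it leaves 10.6% to 12.2% of reads ambiguous between genes.

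Identifiers were matched to GENCODE on GRCh38 (62639 of 62757). TMM-normalized counts of 24 libraries in 8 groups were fitted together with edgeR 4.0.16 (quasi-likelihood F test, R 4.3.3), for 12356 genes with a mean of at least 64 counts in at least 1 group. A call is a Benjamini-Hochberg adjusted p under 0.05 with a change above 1.5-fold, two-sided. TMM factors were 0.789 to 1.10. The 24 pairs of replicates differed beyond sampling noise (chi-square per degree of freedom 10.4 to 284), so none was counted as a duplicate. DESeq2 1.42.0, other filters, RLE normalization, reverse-strand counts, subsets of groups, the replicate block and left-out libraries were alternatives. Same-numbered libraries deviated together (r of 0.11 to 0.83) in 11 of the 15 comparisons, and not in the 4 that set #11 against libraries without it (lowest r -0.39).

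The members and the pathway list were chosen with earlier results of these data known. Text names all members in every comparison where they bear on it, the 3 most raised and 3 most lowered called pathway genes per OXPT comparison, the 3 genes most like RNF43 and AXIN2, and HDAC4, FBXW7 and CDKN1A as checks. EPHB2, KREMEN2, LRP5, ROR2, WNT3, PORCN and WLS values outside this rule were chosen after they were seen. Depth intervals cover counting error only, since reads carried no molecular identifiers.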

Additional observations from a re-analysis of the deposited data

Results flagged for a closer look

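In the 12 WT libraries that entered no comparison, 6 of the 10 members exceeded the highest untreated library among the 24 that did, with all 36 libraries scaled together. The highest value was 32.1 CPM for ZNRF3, against 31.5 CPM in the highest untreated library. For SP5 it was 7.696 CPM, against 7.105 CPM. For TCF7 it was 64.4 CPM, against 60.6 CPM. Among the members under the count filter it was 0.231 CPM for LGR5, against 0.121 CPM, 0.0891 CPM for ASCL2, against 0.0705 CPM, and 0.212 CPM for LEF1, against 0.0971 CPM. The treatment of these libraries is not settled by their labels, and some are titled OXPT. Set against all 24 libraries, SP5, ASCL2 and LEF1 did not exceed the highest values, 12.66, 0.1484 and 0.2815 CPM. The share of all genes that exceeded the highest untreated library was not counted, so the count of 6 is no result about the members. Groups of 3 libraries were not tested for outliers, and the tests of a difference in response between groups called no member.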

How the results depend on the processing

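The number of members called, of 7, changed with the setting in 10 of the 15 comparisons, and the direction of no called value turned. For OXPT in KO esiCT it was 1, and 0 with only the groups compared. For OXPT in WT it was 0, and 1 with DESeq2, with no count filter and with the replicate block (SP5 each time), and 1 (ZNRF3) with replicate 3 left out of every group. For OXPT in KO esiHDAC4 it was 1, against 2 with reverse-strand counts, DESeq2 and the replicate block (NOTUM and ZNRF3), 3 with only the groups compared and the block (with AXIN2), and 0 with no filter, with only the groups compared and with replicate 3 left out. For OXPT in KO #11 it was 0, against 2 with DESeq2 (NKD1 and SP5), 1 with no filter and 1 with the block (SP5), and 3 with only the groups compared, with or without the block (NKD1, NOTUM and SP5). The TCF7 call with esiHDAC4 in untreated KO cells went from 1 to 0 with reverse-strand counts, no filter and only the groups compared, and that against WT under OXPT from 1 to 0 with no filter and only the groups compared. With esiHDAC4 under OXPT the count rose from 0 to 1 (TCF7) with DESeq2 and with replicate 3 left out, and with #11, untreated or under OXPT, from 0 to 1 (RNF43) with replicate 3 left out. KO #11 against WT under OXPT went from 0 to 1 with reverse-strand counts and 1 with the block (NOTUM), 2 with DESeq2 (NKD1 and NOTUM) and 2 with replicate 3 left out (NKD1 and RNF43). Leaving out 1 library at a time gave 0 to 1 called members for OXPT in KO esiCT, 0 to 1 for OXPT in WT, 0 to 1 for OXPT in KO esiHDAC4, 0 to 2 for OXPT in KO #11, 0 to 1 for esiHDAC4 in untreated KO cells, 0 to 1 for KO esiHDAC4 against WT under OXPT and 0 to 1 for KO #11 against WT under OXPT. The setting with no filter tests more genes and the subsets of groups hold fewer libraries, and the cause of the changes was not tested. Over 915 log2 differences of members under the settings other than 1 left-out library, 877 stayed on their side of the threshold, 29 gained a call and 9 lost one. The sign changed in 39 of them, and in 79 of 2520 with 1 library left out, in each case with an unadjusted p of at least 0.05 in both fits. Over all genes, the number called in the main test, with its range over the other settings in brackets, was 1398 (599 to 2156) for OXPT in KO esiCT, 1322 (86 to 2588) for OXPT in WT, 1480 (943 to 2338) for OXPT in KO esiHDAC4, 1175 (786 to 3100) for OXPT in KO #11, 1 (0 to 565) for esiHDAC4 in untreated KO, 0 (0 to 13) for esiHDAC4 in KO under OXPT, 63 (50 to 1807) for #11 in untreated KO, 15 (0 to 1421) for #11 in KO under OXPT, 36 (1 to 322) for untreated KO against WT, 17 (0 to 91) for KO against WT under OXPT, 29 (0 to 586) for KO esiHDAC4 against WT under OXPT, 142 (0 to 1551) for KO #11 against WT under OXPT, and 0 (0 to 24) for genotype by OXPT, 0 (0 to 0) for esiHDAC4 by OXPT, 0 (0 to 248) for #11 by OXPT. SP5 gave no value with a filter on every group or with reverse-strand counts, so that those counts are of 6 members. The block changed no other call of a member, and for the comparisons of #11 with libraries without it the samples share only a number. Low counts limit SP5, and LGR5, ASCL2 and LEF1 were tested with no filter alone.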

Other observations

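In 12 WT libraries whose labels conflict over OXPT, and which entered no comparison, the members were scaled together with all 36 libraries. TCF7 was 38.8 to 53.6 CPM (median 49.1) in the 3 libraries titled WT PROTAC11 and 50.3 to 64.4 CPM (median 54.8) in the 3 titled WT PROTAC11 OXPT. In the 3 titled WT siHDAC4 UNT it was 21.5 to 41.6 CPM (median 26.0), and in the 3 titled WT siHDAC4 OXPT 20.8 to 38.3 CPM (median 29.8). RNF43 was 20.9 to 107 CPM over the 12 libraries (median 48.6), AXIN2 9.14 to 42.2 CPM (median 16.2) and NOTUM 6.88 to 15.7 CPM (median 12.4). LGR5, ASCL2 and LEF1 reached at most 0.231, 0.0891 and 0.212 CPM.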
